A study of Mus musculus with 12 samples.

Results

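Fatty acid synthesis in the liver was followed through 10 genes chosen by name from the 45777 genes of the expression table: Srebf1, Mlxipl, Acly, Acaca, Acacb, Fasn, Scd1, Elovl6, Me1 and Thrsp. RNA-seq had been done on 12 livers of male C57BL/6 mice aged 10 to 12 weeks, in 4 groups of 3: WT given vehicle, WT given acetaminophen (APAP), mice labelled as lacking Gna12 (the gene of the G protein subunit Gα12) given vehicle, and mice with the same genotype label given APAP. By the study's methods the mice were fasted overnight, APAP was a single intraperitoneal dose of 300 mg/kg given 6 h before sampling, and the WT mice were age-matched littermates of the knockouts, whose deletion is carried by the whole animal. The comparisons ask how this pathway responded to a toxic dose of APAP and whether the response depended on the genotype label.

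Gna12 counts under the knockout label were read first. Gna12 had 2472 to 4003 counts in the vehicle livers and 2489 to 3248 counts in the APAP livers labelled KO. The corresponding WT livers had 1659 to 3550 and 1193 to 4373 counts, so its gene-level counts were not lower under the label. Such counts cannot show which part of the gene the reads cover, so they do not test the deletion. The paper typed WT and knockout mice by PCR of tail DNA, and assayed liver Gna12 by qRT-PCR and Gα12 by immunoblot. Because the counts do not show the deletion, these groups are called livers labelled KO. Every direction between genotypes below rests on that label. Total counts ran from 49737950 to 69566079 per liver. The summed CPM (counts scaled to library size) of 7 hepatocyte markers was 73300 to 138000 in every liver. WT APAP liver 1 stood apart: its 5 erythroid markers summed to 17400 CPM against 253 to 749 CPM elsewhere, its 6 neutrophil markers to 121 CPM against 0.847 to 19.1 CPM elsewhere, and its long transcripts were low. Values that moved with this liver are given without it as well.

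De novo lipogenesis turns surplus carbohydrate into fat. Citrate exported from mitochondria is split to acetyl-CoA by ATP citrate lyase (Acly), acetyl-CoA is carboxylated to malonyl-CoA by the acetyl-CoA carboxylases (Acaca, Acacb), and fatty acid synthase (Fasn) joins these units into palmitate with reducing power from NADPH, part of which comes from malic enzyme (Me1). Palmitate is then lengthened by Elovl6 and desaturated by Scd1, and the programme is switched on after feeding by SREBP-1c (from Srebf1, activated under insulin) and by the glucose-responsive factor ChREBP (from Mlxipl); Thrsp, or Spot 14, is a small protein induced with the pathway. These genes are low in fasting, the state in which all of these mice entered the experiment.

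The promoters show which regulatory letters lie beside these genes. The RefSeq promoter table (GRCm38.p6, from 250 bases before to 50 bases after each start) gave 13 windows for 9 of the 10 genes (all except Scd1). The windows were searched on both strands for the E-box CACGTG, the sterol response element TCACNCCAC, the CCAAT box, the carbohydrate response element, the antioxidant response element TGACNNNGC and the AP-1 letters TGANTCA. The stretches below are a selection of the matches, at the 3 genes that passed the test in some APAP comparison (Me1, Mlxipl and Acly) and at Fasn as the pathway's central enzyme, and the capitals mark the matched letters, read in the direction of the gene.
Me1, chr9:86695901-86695930, minus strand: gatgccgccgTGACTCAGCgcttctcgcgg
Mlxipl, chr5:135089780-135089809, plus strand: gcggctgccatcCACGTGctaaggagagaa
Mlxipl, alternative start, chr5:135106745-135106774, plus strand: atcagtggttTCACACCACgctcactggtt
Acly, chr11:100527951-100527980, minus strand: ctagggaacgcgtgtgcCCAATcgccgggc
Fasn, chr11:120824592-120824621, minus strand: cggcctcggtgtCCAATtggtttcgatgtg
The Me1 match to the antioxidant response element lay on the start itself, at bases -6 to 2 with the start base counted as 0, and the AP-1 letters at bases -6 to 0 fall inside it. Of all 32851 promoter windows, 12.4% held the former and 7.8% the latter, and Me1 was the only gene of the set with either. The E-box was found only at Mlxipl, at bases -98 to -93 (7.2% of all windows), and the sterol response element only at the alternative Mlxipl start, at bases -136 to -128 (1.2%). CCAAT was present in 8 of the 13 windows, against 37.4% of all windows, with 3 matches upstream of Fasn, of which the printed one overlaps a second on the opposite strand. The printed Acly match lay downstream of the start, at bases 37 to 41. The carbohydrate response element matched none of the 13 windows and 0.5% of all windows. These matches describe letters in a short window and were not measured as binding.

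Among the 10 genes, Me1 was the clearest to change after APAP. In vehicle livers it stood at 65.8, 55.2 and 81.6 CPM in WT and at 92.6, 74.8 and 62.9 CPM under the KO label, and after APAP at 116, 121 and 154 CPM and at 147, 133 and 114 CPM. Every APAP liver was above every vehicle liver. Over both genotype labels (6 against 6, label as covariate) the mean was 131 ± 16.8 against 72.2 ± 13.6 CPM (SD), a 1.81-fold rise (log2 0.86 ± 0.14 SE, adjusted p = 0.000725 in edgeR's quasi-likelihood test with Benjamini-Hochberg adjustment). Of 16509 genes tested in that comparison 25.4% passed the threshold of 0.05, and 7.11% were higher in every APAP liver than in every vehicle liver.

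In total 3 of the 10 genes passed in the comparison over both labels: Me1 rose, beside 14% of all genes, and Mlxipl and Acly fell, beside 11.4%. With 3 of 10 beside 25.4% of all genes, the set was called about as often as the transcriptome at large. Its median log2 fold change was 0.10, and that of all genes tested 0.01. The plot of CPM by liver shows the 10 genes in the 4 groups.

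**Figure D1:**
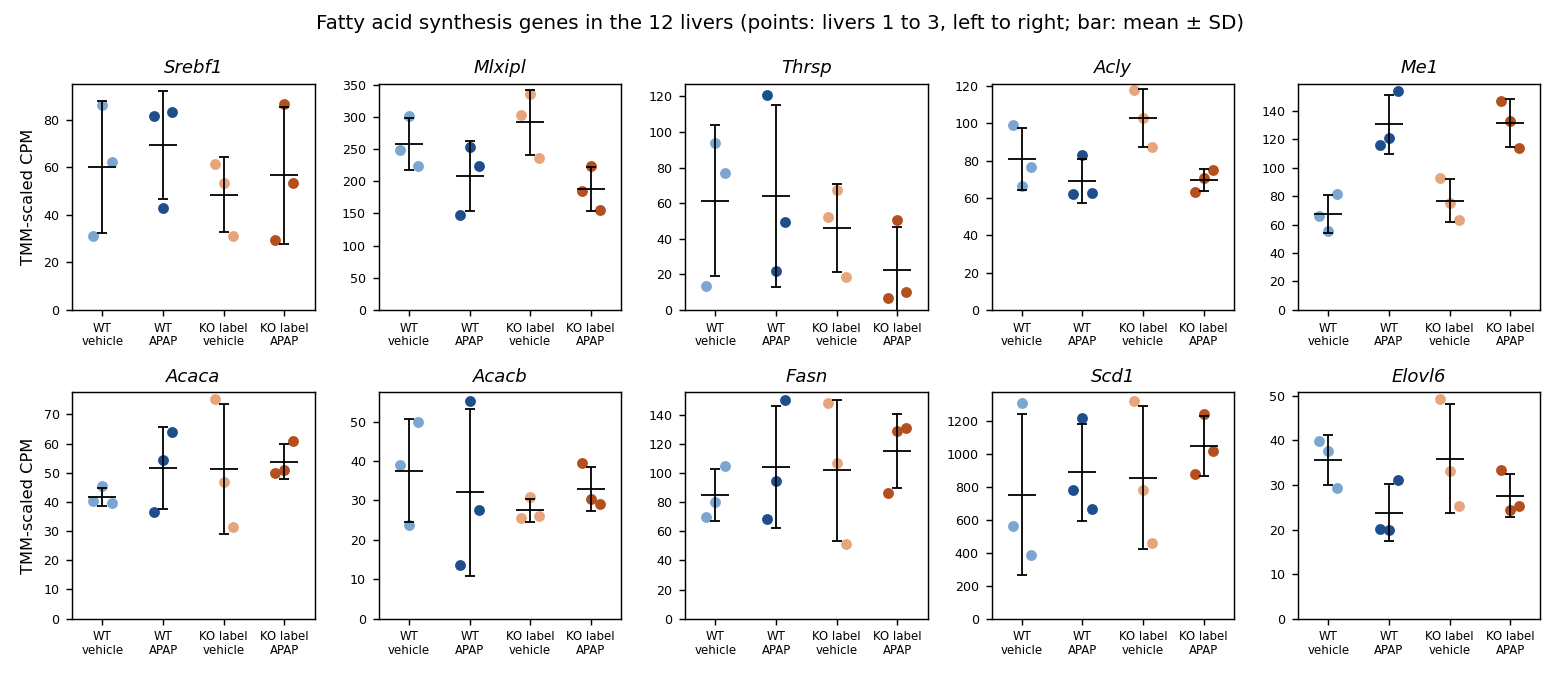
CPM (TMM-scaled, linear axis from 0) of the 10 fatty acid synthesis genes in the 12 livers, with points for livers 1 to 3 of each group from left to right and black bars for mean ± SD (n = 3; the lower bar of Thrsp is cut at 0). Me1 separates vehicle from APAP without overlap, whereas Thrsp spans 6.96 to 121 CPM with livers of each group far apart.

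The regulator genes came first in the order of the pathway. Mlxipl (chr5:135089890-135139768) was at 248, 302 and 224 CPM in WT vehicle livers and at 147, 253 and 223 CPM in WT APAP livers, which overlapped. With the KO label it was at 303, 335 and 236 CPM with vehicle and at 185, 224 and 156 CPM after APAP, which did not. The fall over both labels was to 0.721 of the vehicle level (log2 -0.47 ± 0.16, edgeR adjusted p = 0.047), and under the KO label to 0.651 (log2 -0.62 ± 0.18, edgeR adjusted p = 0.0433), while WT alone gave log2 -0.31 ± 0.25 (edgeR adjusted p = 0.555), or -0.12 without WT APAP liver 1. Without WT APAP liver 1 the edgeR adjusted p over both labels was 0.0724, and leaving out livers in turn, the call held only without WT vehicle liver 3, WT APAP liver 2 or KO-label vehicle liver 3. The call under the KO label ended without vehicle liver 1 or 2 or APAP liver 1 or 3 (edgeR adjusted p = 0.108 to 0.141).

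Srebf1 (chr11:60199084-60224186) showed no such shift and varied widely within groups. WT vehicle livers held 31.2, 86.5 and 62.5 CPM and WT APAP livers 81.5, 43.0 and 83.4 CPM. Livers labelled KO held 61.3, 53.5 and 31.0 CPM with vehicle and 29.6, 86.9 and 53.5 CPM after APAP. All groups overlapped, and the difference over both labels was log2 0.21 with a 95% interval from -0.43 to 0.86, which leaves changes of either sign possible. Srebf1 overlaps Rai1 on the opposite strand; Rai1 reached 2156 counts in a liver against 1405 to 5433 for Srebf1. The libraries were stranded but the strand setting of the counting was not given in the sources used here, so reads of the 2 genes may be mixed. Opposite-strand neighbours of the other members with counts in the table reached at most 103.

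**Figure D2:**
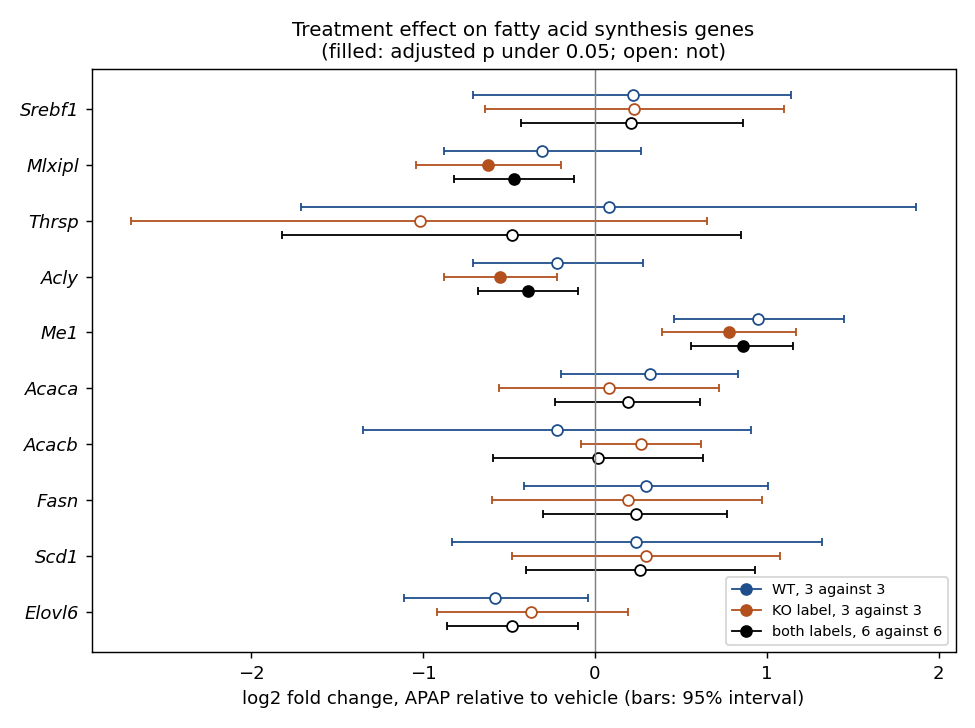
Log2 fold change of APAP relative to vehicle for each gene, in WT (3 against 3), under the KO label (3 against 3) and over both labels (6 against 6), with bars for the 95% interval and filled points for an adjusted p under 0.05. Me1 is the gene with intervals above 0 in all 3 comparisons, and Mlxipl and Acly lie below 0 under the KO label and over both labels. The intervals of Elovl6 lie below 0 in WT (-1.11 to -0.04) and over both labels (-0.86 to -0.10), with open points. Thrsp has the widest intervals.

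Acly (chr11:100476352-100528000), which opens the cytosolic route, fell slightly. It was at 99.3, 66.6 and 76.8 CPM in WT vehicle livers and at 61.9, 82.8 and 62.7 CPM in WT APAP livers. In livers labelled KO it went from 118, 103 and 87.0 CPM with vehicle to 63.2, 70.7 and 74.9 CPM after APAP, with no overlap. The change was log2 -0.55 ± 0.14 under the KO label (edgeR adjusted p = 0.0282), log2 -0.22 ± 0.21 in WT (edgeR adjusted p = 0.629) and log2 -0.39 ± 0.13 over both labels (edgeR adjusted p = 0.047). The last call ended without WT APAP liver 1 (edgeR adjusted p = 0.0678), and leaving out livers in turn it held only without WT vehicle liver 2 or WT APAP liver 2. The call under the KO label held only without vehicle liver 3 (edgeR adjusted p = 0.0581 without APAP liver 3).

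Me1 (chr9:86581363-86695914) was tested within each label as well. The rise was 1.72-fold under the KO label (log2 0.78 ± 0.17, edgeR adjusted p = 0.0149) and 1.94-fold in WT (log2 0.95 ± 0.21), where the edgeR adjusted p of 0.0692 missed the threshold although the unadjusted p was 0.0022 and the groups did not overlap. In WT 2.05% of 15693 genes were called and none of the 10 was among them, while 22.6% of 15665 genes (13% higher, 9.6% lower) and 3 of the 10 (1 higher, 2 lower) were called under the KO label. Groups did not overlap for 24.9% of genes in WT and for 42.8% under the KO label, and for 1 and 3 of the 10 genes. Leaving out KO-label vehicle liver 2 ended the call under that label (log2 0.76, edgeR adjusted p = 0.0636). The effects on Me1 under the 2 labels did not differ detectably (interaction log2 0.17, 95% interval -0.43 to 0.78). Without WT APAP liver 1 the WT value was log2 1.02. On the authors' TPM scale, which has no TMM scaling between livers, that liver read 35.4 TPM. The other WT APAP livers read 69.2 and 77.6 TPM, and the WT vehicle range of 24.7 to 38.2 TPM held the value of WT APAP liver 1.

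The carboxylases did not pass in any comparison. Acaca (chr11:84129635-84401651), whose product supplies malonyl-CoA for synthesis, was at 40.2, 45.3 and 39.5 CPM in WT vehicle livers and at 36.4, 54.3 and 64.1 CPM in WT APAP livers. Under the KO label it was at 75.2, 46.9 and 31.4 CPM with vehicle and at 49.8, 50.8 and 60.7 CPM after APAP, so the vehicle livers there enclosed the APAP livers. Acacb (chr5:114146321-114250761), whose malonyl-CoA restrains fatty acid entry into mitochondria, was at 39.0, 23.8 and 49.8 CPM and at 13.5, 55.2 and 27.6 CPM in WT vehicle and WT APAP livers. Under the KO label it was at 25.5, 30.9 and 26.1 CPM with vehicle and at 39.4, 30.3 and 29.2 CPM after APAP. Over both labels the interval was -0.23 to 0.61 for Acaca and -0.59 to 0.63 for Acacb on the log2 fold change scale. In WT alone the log2 fold changes were 0.32 (Acaca) and -0.22 (Acacb), and without WT APAP liver 1 they were 0.51 and 0.14.

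Fasn (chr11:120805958-120825166), like the carboxylases, did not pass in any comparison. Its values were 69.9, 80.3 and 105 CPM in WT vehicle livers and 68.5, 94.4 and 150 CPM in WT APAP livers. In livers labelled KO they were 148, 107 and 51.4 CPM with vehicle and 86.1, 129 and 131 CPM after APAP. Groups overlapped in each case, and the difference over both labels was log2 0.24 (95% interval -0.30 to 0.77), which leaves changes of either sign possible. In WT alone it was 0.30, and 0.52 without WT APAP liver 1.

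The enzymes that modify palmitate went different ways in their estimates, without a call in edgeR. Scd1 (chr19:44394450-44407709), the main hepatic stearoyl-CoA desaturase, was the most abundant of the set per transcript length, with a mean of 311 TPM over the 12 livers. WT livers held 561, 1310 and 387 CPM with vehicle and 778, 1220 and 663 CPM after APAP. Livers labelled KO held 1320, 782 and 462 CPM with vehicle and 877, 1240 and 1020 CPM after APAP, again with overlap. The log2 difference over both labels was 0.26 with an interval of -0.40 to 0.93. Elovl6 (chr3:129532386-129638495) held 39.9, 37.7 and 29.3 CPM in WT vehicle livers and 20.1, 20.0 and 31.2 CPM in WT APAP livers, and under the KO label 49.2, 33.2 and 25.2 CPM with vehicle and 33.3, 24.4 and 25.2 CPM after APAP. Elovl6 was at log2 -0.58 in WT (edgeR adjusted p = 0.243) and -0.37 under the KO label (edgeR adjusted p = 0.309). Its estimate over both labels, log2 -0.48 ± 0.18, just missed the threshold (edgeR adjusted p = 0.0632). Of 21 alternatives, 15 also left it uncalled, among them the fit without WT APAP liver 1 (log2 -0.42, edgeR adjusted p = 0.117). The other 6 passed. These were DESeq2 (adjusted p = 0.0432) and limma on log2(TPM + 1) and log2(TPM + 0.1) (adjusted p = 0.0436 and 0.0476). The rest were the fits without WT APAP liver 3, KO-label vehicle liver 3 or KO-label APAP liver 1 (edgeR adjusted p = 0.0251 to 0.0484).

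Thrsp (chr7:97412933-97417550) was the least steady of the set. In WT livers it was at 13.2, 93.6 and 76.9 CPM with vehicle and at 121, 21.9 and 49.6 CPM after APAP. In livers labelled KO it was at 52.2, 67.1 and 18.7 CPM with vehicle and at 6.96, 50.3 and 10.1 CPM after APAP. The highest of all was WT APAP liver 1, where short transcripts were high, and the highest liver held 17.4 times the CPM of the lowest. The log2 difference over both labels was -0.48 with an interval of -1.82 to 0.85, and -0.92 without WT APAP liver 1. Under the KO label it was -1.02 (edgeR adjusted p = 0.347), and without APAP liver 2 alone -2.42 (edgeR adjusted p = 0.0179), so that liver decides the call.

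Per transcript length, the means over the 12 livers ran from Scd1 (311 ± 145 TPM, SD) through Mlxipl (86.6 ± 26.2), Thrsp (66.8 ± 41.8), Me1 (52.4 ± 22.2), Acly (30.6 ± 9.93), Srebf1 (22.0 ± 8.25), Fasn (17.5 ± 7.24), Elovl6 (8.69 ± 3.28) and Acaca (7.86 ± 2.96) to Acacb (6.24 ± 2.64 TPM). The ranges over livers overlapped for each pair of neighbours in this order.

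Livers of the same group lay far apart for some of these genes. The SD of log2 CPM between livers of a group was 1.34 for Thrsp (97.8th percentile of the 16509 genes), 0.66 for Srebf1 and 0.64 for Scd1, and at the other end 0.25 for Me1 and 0.23 for Acly. Its median was 0.46 over the 10 genes and 0.34 over all genes. The 3 genes that were called in the comparison over both labels, Me1, Mlxipl and Acly, were also the 3 with the smallest spread.

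**Figure D3:**
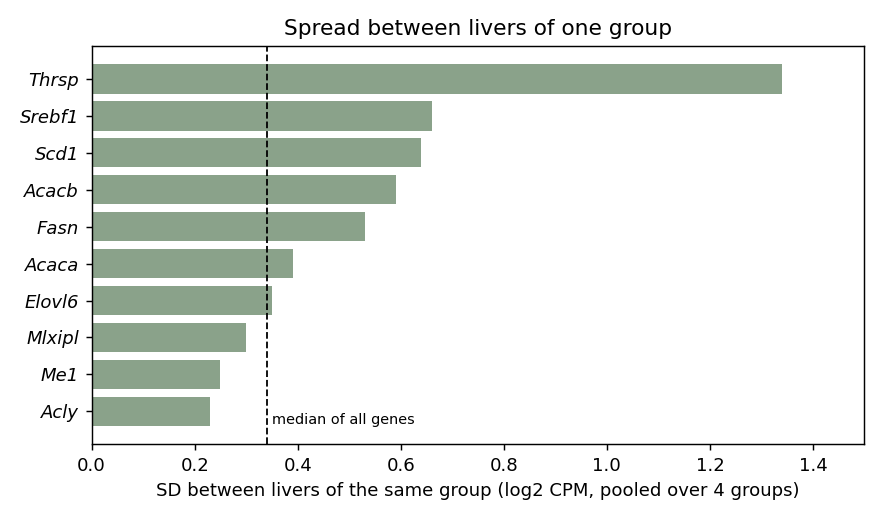
SD of log2 CPM between livers of the same group, pooled over the 4 groups, as bars for the 10 genes, with a dashed line at the median of all 16509 genes (0.34). Thrsp (1.34) is far to the right, and Mlxipl, Me1 and Acly are the genes to the left of the line.

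Some livers were low or high for many of the genes at once. In vehicle livers labelled KO, liver 3 was the lowest of its group for 9 of the 10 genes, at a median of 0.697 times its group's mean, and liver 1 was the highest for 7. WT APAP liver 1 was lowest for 6 genes and highest for Thrsp. Of the pairs within the set, Fasn and Acaca lay closest: their centred log2 CPM over the 12 livers differed by a root mean square of 0.23, and of the 7854 genes compared none was nearer to Fasn than Acaca and 16 were nearer to Acaca than Fasn. For Srebf1, Mlxipl, Acly, Acacb, Elovl6 and Me1, 603 to 3027 genes outside the set were nearer than their nearest member. The gene outside the set nearest to Fasn was Kremen1 (0.28), to Acaca Slc22a23 (0.19) and to Scd1 Adam11 (0.34). For Srebf1 it was Rpl3 (0.34), for Thrsp Spry4 (0.88), for Acacb Dact2 (0.22) and for Elovl6 Ldhd (0.19), and for the 3 called genes Prune1 (Me1, 0.18), Pm20d1 (Mlxipl, 0.14) and Epha1 (Acly, 0.13). These distances describe likeness over livers that share groups and libraries, and carry no test.

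Levels shifted with transcript length in some libraries. In WT APAP liver 1, genes with transcripts under 1500 bases lay at a median of 0.52 above the other 2 livers of the group in log2 CPM, and those of 6000 bases and over at 0.39 below. The longest coding transcripts of Fasn, Acaca and Acacb have 10050, 9513 and 8788 bases and that of Thrsp 1277. In that liver Fasn, Acaca and Acacb were the lowest of their group and Thrsp the highest. WT APAP liver 2 tilted the other way, at -0.36 for the shortest and 0.31 for the longest class, against a pair that includes liver 1. Acacb was the highest and Thrsp the lowest of the group there, while Fasn and Acaca were highest in liver 3. Smaller tilts were present in KO-label vehicle liver 3, at 0.23 for the shortest and -0.19 for the longest class, and in KO-label vehicle liver 1, at -0.20 and 0.16. Thrsp was the lowest of its group in KO-label vehicle liver 3. The part of transcript length in the members' values was not tested.

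**Figure D4:**
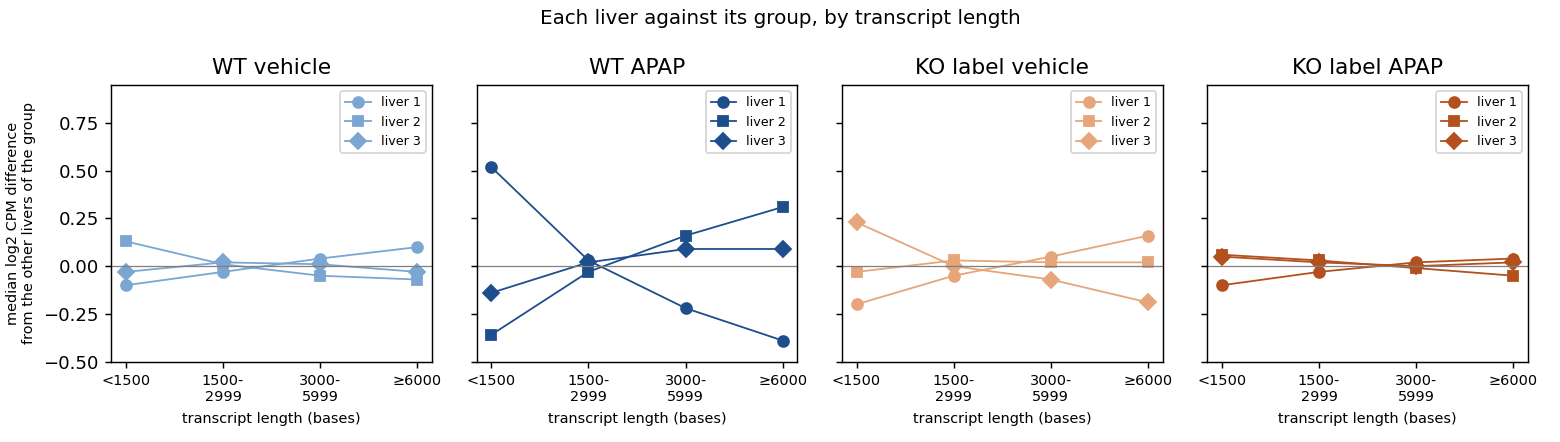
Median difference in log2 CPM of each liver from the other 2 livers of its group, for genes in 4 classes of transcript length, one panel per group with a line for each liver. The line of WT APAP liver 1 runs from 0.52 for the shortest class to -0.39 for the longest, and the APAP livers labelled KO stay near 0.

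Between genotype labels none of the 10 genes passed, with vehicle or after APAP. After APAP 0.0309% of 16174 genes passed, and the 10 ranged from log2 -0.23 for Scd1 to 1.53 for Thrsp (WT relative to the KO label; Thrsp 64.1 ± 51.1 against 22.4 ± 24.2 CPM, SD, n = 3 each, with edgeR adjusted p = 0.958). Leaving out livers in turn gave 0.67 (without WT APAP liver 1) to 2.93 for Thrsp and -0.52 to -0.05 for Scd1. With vehicle 0.0262% of 15262 genes passed, and the values ran from -0.34 for Acly to 0.45 for Acacb. Groups overlapped for all 10 genes in both comparisons, while they did not overlap for 8.73% of all genes after APAP and 14% with vehicle. Me1 after APAP was 130 ± 20.8 CPM in WT and 131 ± 16.5 CPM under the KO label (log2 difference 0.00, 95% interval -0.43 to 0.44). The interaction of label and treatment was called in edgeR for none of the 16509 genes (848, or 5.14%, at an unadjusted p under 0.05; 9 genes in DESeq2), and for the 10 it ranged from -0.49 (Acacb) to 1.10 (Thrsp, 95% interval -1.56 to 3.77). Without WT APAP liver 1 these were -0.14 and 0.24.

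The neighbouring steps of the pathway were read from 7 companion lists, with APAP against vehicle over both labels, where 25.4% of all genes passed (14% higher, 11.4% lower) at a median log2 fold change of 0.01. Of 10 genes of carbon and NADPH supply, 4 rose and 1 fell, with a median of 0.02. Pgd, the 6-phosphogluconate dehydrogenase of the pentose phosphate pathway, went from 13.0 to 18.4 CPM in the vehicle livers to 41.6 to 74.1 CPM in the APAP livers (3.85-fold, edgeR adjusted p = 1.03e-06). G6pdx, which makes NADPH at the step before, went from 2.42 ± 0.55 to 6.71 ± 3.01 CPM (2.71-fold, edgeR adjusted p = 0.000669). Acss2, which makes cytosolic acetyl-CoA from acetate, fell to 0.635 of the vehicle level (edgeR adjusted p = 0.002). Tkt, the transketolase of the pentose phosphate pathway, named after its value was seen, also rose (log2 0.53). Of the genes named, Me1, Pgd and G6pdx were higher and Acss2 was lower in every APAP liver than in every vehicle liver; they were put side by side after their values were seen. Without WT APAP liver 1, 4 genes of this list rose and 2 fell. Leaving out livers, 3225 to 5627 genes were called over all genes rather than 4187. The 25.4% is therefore not the share for this count or for later counts made without livers.

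**Figure D5:**
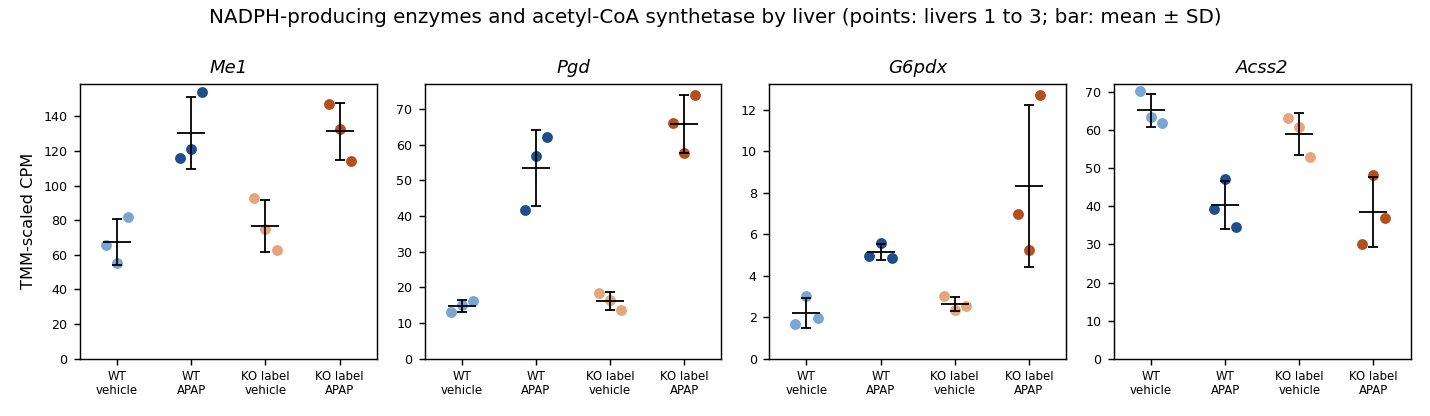
CPM (TMM-scaled, linear axis from 0) of Me1, Pgd, G6pdx and Acss2 in the 12 livers, with points for livers 1 to 3 of each group and bars for mean ± SD (n = 3). Me1, Pgd and G6pdx are higher and Acss2 is lower in every APAP liver than in every vehicle liver.

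Of 11 genes of desaturation and elongation, 1 rose and 3 fell, beside the 25.4% called over all genes. Elovl3, an elongase with a strong daily rhythm in liver, rose from 52.8 ± 19.8 to 203 ± 49.1 CPM (3.87-fold, edgeR adjusted p = 0.000231). Fads2 and Elovl2, of polyunsaturated fatty acid synthesis, fell by 0.76 and 0.65 on the log2 scale (edgeR adjusted p = 0.0165 and 0.0198), and Fads1, named after its value was seen, fell by 0.42. Of 9 glycerolipid synthesis genes 2 fell, Lpin1 (log2 -1.09) and Gpat4 (log2 -0.60), while Dgat1 at log2 0.15 did not pass; 2 of 9 is near the 25.4% of all genes. Without WT APAP liver 1, 1 of the 9 was called.

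Of 14 genes that regulate SREBP and ChREBP, 3 rose and none fell, a share below the 25.4% called over all genes. Insig2, an anchor that holds the SREBP precursor in the endoplasmic reticulum, rose 3.15-fold (174 ± 67.7 to 570 ± 338 CPM, edgeR adjusted p = 0.00578), Mbtps2, a protease that releases SREBP, 1.32-fold and Fbxw7, a ubiquitin ligase subunit that targets it, 1.41-fold. Without WT vehicle liver 2 and WT APAP liver 1 together, a pair chosen after seeing the data, 5 of this list rose. The 25.4% is not the share for that count. Of 10 genes of insulin and energy sensing 2 rose and 1 fell, a share near the 25.4% called over all genes. The list's median log2 fold change was -0.06. Insr, the insulin receptor, fell by 0.70 on the log2 scale. Irs2, an insulin receptor substrate, and Trib3, a stress-induced pseudokinase, rose by 0.76 and 1.39. Without WT APAP liver 1, 3 of this list rose and 1 fell.

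Of 9 genes of the fasting state 3 rose and 3 fell, beside 14% higher and 11.4% lower over all genes. Pck1, the gluconeogenic enzyme that fasting induces, fell from 4300 ± 1150 to 1730 ± 325 CPM, whereas Fgf21, a fasting and stress hormone, and Pdk4, a brake on pyruvate oxidation, rose 4.98-fold and 4.74-fold. Of 8 clock genes 3 rose and 4 fell, beside the same shares, with Arntl up 8.41-fold, Nr1d1 up 5.66-fold and Per2 down to 0.461 of its vehicle level. The hour of sampling of each liver was not given in the sources used here. Clock and fasting genes therefore moved together with the comparison in which Me1, Mlxipl and Acly were called, and their part in those results was not tested.

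In whole liver, a change in the share of cells of a type and a change of RNA per cell cannot be told apart. Fat cells, which also run lipogenesis, were checked with 7 markers. The 5 defining ones (Adipoq, Plin1, Lep, Cfd and Retn) summed to at most 0.689 CPM in any liver, Retn was at 0 in all of them, and the list's total of 7.02 to 143 CPM came almost wholly from Fabp4 and Cidec, which other cells also express. Those 2 were the only adipocyte markers to pass the filter, and both rose over both labels (log2 1.41 and 2.49). In that comparison 25.4% of all genes passed, 14% higher and 11.4% lower. The other marker lists over both labels gave 0 of 5 erythroid, 0 of 4 neutrophil and 0 of 6 macrophage genes. Without WT vehicle liver 2 and WT APAP liver 1, 3 neutrophil genes were higher. The remaining lists gave 2 of 5 endothelial genes (Lyve1 and Pecam1, both higher) and 1 of 7 hepatocyte genes (Cyp2e1, lower, log2 -1.06). Of 5 stellate genes 1 was called (Lrat, lower), and 0 without WT APAP liver 1. The part of these cell types in the results above was not tested.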

How the data were processed

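Livers were profiled by stranded, poly-A selected paired-end RNA-seq. The deposited table holds, per gene and liver, raw read counts, FPKM and TPM made by the authors; the submitters' processing notes name FastQC 0.11.7, Trimmomatic 0.38, HISAT2 2.1.0, Bowtie2 2.3.4.1, StringTie 2.1.3b and the mm10 (GRCm38) build, without roles. The deposited FPKM values were not used in a result, and the authors' TPM served for levels between genes and for alternative scales. The study's own per-gene test on log quantile-normalized TPM was kept as an alternative, because counts allow a count model.

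Counts were tested with edgeR 4.0.16 (R 4.3.3; quasi-likelihood, TMM, filterByExpr, Benjamini-Hochberg over all genes tested, threshold 0.05), on the 2 groups compared or on all 12 livers with the genotype label as covariate. All 10 genes passed the filter in each comparison. log2 CPM used a prior count of 2. Alternatives used DESeq2 1.42.0 and limma 3.58.1. The fits were tested on simulated counts. Same-numbered livers correlated between -0.264 and 0.107 (1 of 18 pairs over 0.1), so numbers did not pair livers.

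Named were all 10 genes, the 3 genes of each companion list with the smallest p over both labels, and the gene nearest to each member. Members and lists were chosen with earlier results of these data known. Livers are separate animals by their labels. Gene positions are RefSeq's on GRCm38. Some genes counted in the companion lists are not named, among them one that is not reported here.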

Additional observations from a re-analysis of the deposited data

How the results depend on the processing

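Me1 over both labels passed in all 21 alternatives (log2 0.79 to 0.94, adjusted p 6.6e-08 to 0.00713). Mlxipl and Acly over both labels kept their direction in all 21 but lost the call in 14 and 15. Of the 10 genes, 3 were called over both labels: 4 by DESeq2's Wald test (Elovl6 added), 2 by limma on either TPM scale (Me1 and Elovl6, without Mlxipl and Acly), 1 with no filter on low counts or by the study's scale (Me1), and 1 to 3 leaving out livers. Under the KO label 3 were called: 1 by limma on log2(TPM + 0.1) and with all 12 livers in one fit, 0 by the study's scale, and 0 to 3 leaving out livers (0 without vehicle liver 2, 1 without vehicle liver 1 or APAP liver 1 or 3). In WT 0 were called, and 1 by DESeq2's Wald test and in the 12-liver fit. Between labels and for the interaction it was 0 throughout. The replicate block, for numbers not used to pair livers in the main fits, called 2 of the 10 under the KO label and 2 over both labels, and 62 rather than 322 genes in WT.

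Uncalled log2 values changed sign. Leaving out livers, WT ran from -0.88 to 0.14 (Acacb), -0.05 to 0.52 (Fasn), -0.09 to 0.99 (Scd1), -0.10 to 0.57 (Srebf1), -0.49 to 0.01 (Mlxipl) and -0.78 to 0.52 (Thrsp). The KO label ran from -0.18 to 0.49 (Acaca), -0.14 to 0.57 (Fasn) and -0.22 to 0.54 (Srebf1). Acacb over both labels ran from -0.22 to 0.22, and Thrsp between vehicle groups from -0.03 to 0.89. With both WT vehicle liver 2 and WT APAP liver 1 left out (chosen after seeing the data), WT gave 0.01 for Mlxipl and -0.33 for Thrsp. The block gave -0.04 for Thrsp in WT and 0.00 for Acacb over both labels, where log2(TPM + 1) and the study's scale gave -0.11 and log2(TPM + 0.1) -0.14. The cause was not tested.

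Counts over all genes moved in several comparisons. In WT 322 became 1413 by DESeq2, 1523 in the 12-liver fit, 0 by the study's scale and 41 to 631 leaving out livers. Under the KO label 3538 became 1195 by the study's scale, 2249 in the 12-liver fit and 1995 to 3368 leaving out livers. After APAP 5 became 29 and with vehicle 4 became 137 by DESeq2, and other settings gave 0 to 7 and 0 to 16. With 3 livers a group, an SD such as that of Thrsp leaves even large changes uncalled.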
